A study of Homo sapiens with 5 samples.

Results

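Human chromosome 19 carries the densest collection of C2H2 zinc finger genes in the genome, and PHF8 occupied most of their promoters in melanoma cells. The genes described here are the 246 protein-coding genes of chromosome 19 in the GENCODE release 44 annotation, lifted to the GRCh37 (hg19) assembly, whose symbol is ZNF followed by a number and at most a letter. They make up 16.6% of the 1480 protein-coding genes of the chromosome, with 83 on the short arm and 163 on the long arm. PHF8 peaks were found within 1 kb of an annotated transcription start site (TSS) in all 3 ChIP-seq replicates at 214 of the 246 genes, or 87.0% (Wilson 95% interval 82.2 to 90.6%), against 60.2% of all protein-coding genes. Such genes are called bound below. The interval covers counting error over genes only, and neighbouring genes that share a peak are not independent.

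Chromatin immunoprecipitation with sequencing (ChIP-seq) was carried out with an antibody against PHF8 in SKMEL-147 cells, a long-established melanoma line of human origin with mutant NRAS. The group consisted of 3 PHF8 replicates, called A, B1 and B2, and 2 input samples, A and B, for which no separate peak list was analysed here. The series text describes a guide RNA model of PHF8 loss in this line, and whether the cells of these samples carried a control guide or none is not stated in the labels, which name only the line and the antibody. They also do not say whether the replicates came from separate cultures, so the spread between them may be technical. B1 and B2 carry the same letter, with a single input B beside them. They may therefore not be independent of each other to the same degree as of A. Over the bound genes, Spearman's rho of fold enrichment was 0.875 between B1 and B2, against 0.728 and 0.781 with A. For fragments at the summit it was 0.911, against 0.878 and 0.910. Cells lacking PHF8 were not analysed here, so peaks were compared between genes within the 3 replicates and not between conditions. The lists for A, B1 and B2 held 21506, 20882 and 20120 peaks, and the median number of fragments at a summit was 54, 39 and 40, respectively. Replicate A gave a larger median enrichment, 18.9-fold over background against 11.8-fold in both B1 and B2, although not at every gene. For this reason genes were also ranked within each replicate.

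PHF8 belongs to the Jumonji enzymes, which take methyl groups off histones. Its PHD finger binds histone H3 trimethylated on lysine K4, a mark of active promoters, and its catalytic domain removes repressive methyl groups, including those on H3K9. The zinc finger genes of chromosome 19 mostly encode proteins with a row of C2H2 fingers, which read DNA, and many also carry a KRAB domain. KRAB recruits the corepressor TRIM28, which brings the H3K9 methyltransferase SETDB1 and HP1 proteins to retrotransposons and other sites. The family grew by tandem duplication, which left its members in clusters of near relatives. In the coding sequences that translated whole (244 of 246), the members held a median of 13 C2H2 patterns, with an interquartile range of 10 to 15 and extremes of 3 and 39.

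The members fell into 10 clusters of at least 5 genes, when a gap of more than 500 kb between neighbours was taken as a boundary, and 14 genes lay outside them. Each cluster is named here by its first and last member. The cluster from ZNF101 to ZNF254, which contains ZNF91 and lies next to the centromere of the short arm, differed from the others in sequence as well as in PHF8 enrichment, and its promoters are shown first because the same letters stood in front of bound and unbound genes. The following 100 bases end just before an annotated TSS of each gene, overlap no annotated exon, and are written on the strand of the gene in the GRCh37 assembly. Capitals mark the letters CCAATCAG, which contain the CCAAT core recognised by the factor NF-Y. This string was chosen after these sequences had been seen.
ZNF253 (bound, chr19:19976591-19976690, plus strand): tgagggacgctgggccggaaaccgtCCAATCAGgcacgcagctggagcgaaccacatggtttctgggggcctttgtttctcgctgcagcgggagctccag
ZNF93 (bound, chr19:20011622-20011721, plus strand): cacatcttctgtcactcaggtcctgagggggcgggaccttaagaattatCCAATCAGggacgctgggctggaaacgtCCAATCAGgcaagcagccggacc
ZNF91 (bound, chr19:23578274-23578373, minus strand): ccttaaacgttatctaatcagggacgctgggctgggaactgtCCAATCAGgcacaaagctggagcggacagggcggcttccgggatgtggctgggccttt
ZNF486 (bound, chr19:20277923-20278022, plus strand): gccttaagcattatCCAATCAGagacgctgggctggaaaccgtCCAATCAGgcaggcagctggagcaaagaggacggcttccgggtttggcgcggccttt
ZNF208 (not bound, chr19:22193752-22193851, minus strand): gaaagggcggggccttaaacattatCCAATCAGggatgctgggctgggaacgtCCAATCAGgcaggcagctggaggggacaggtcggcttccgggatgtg
ZNF99 (not bound, chr19:22966954-22967053, minus strand): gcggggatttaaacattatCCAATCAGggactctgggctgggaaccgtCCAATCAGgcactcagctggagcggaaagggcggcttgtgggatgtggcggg
ZNF728 (not bound, chr19:23185979-23186078, minus strand): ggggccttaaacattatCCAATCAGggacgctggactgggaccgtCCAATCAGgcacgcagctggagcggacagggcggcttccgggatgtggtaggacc

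Within 250 bases upstream of the TSS, CCAATCAG was present on either strand in 36 of the 37 members from ZNF101 to ZNF254. At least 2 copies were present in 19 of them. The string was also found in 22 of 25 members of the cluster from ZNF653 to ZNF791, 2 of them with at least 2 copies, and in 4 of 5 from ZNF554 to ZNF77, all 4 with at least 2 copies. Both clusters likewise lie on the short arm. By contrast, the ZNF414 to ZNF846 cluster of the same arm had it in 0 of 13, and the 6 clusters of the long arm had it in at most 1 member each. Among all protein-coding genes, 4.70% had the string and 0.590% had at least 2 copies. The string did not separate bound from unbound genes of the ZNF91 cluster, since promoters with at least 2 copies were bound in 12 cases and not bound in 7.

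The likeness of these promoters went beyond the CCAATCAG string. In global alignments of the 500 bases centred on the TSS, pairs of members from ZNF101 to ZNF254 had a median identity of 67.3% (666 pairs), and the closest pair reached 87.6%. The medians of the other 9 clusters lay between 51.2% and 56.2%, although single pairs were closer, up to 92.7% in the ZNF175 to ZNF331 cluster. The summits of some members also fell on shared letters. The 30 bases around the replicate A summit are given below for ZNF253, the most enriched gene of the cluster, and for ZNF93 and ZNF91, which encode repressors of LINE-1 and SVA retrotransposons, respectively. Capitals mark the longest run of letters shared by the 3 windows, which was likewise chosen after the sequences had been seen.
ZNF253 (chr19:19976791-19976820, plus strand): CCTGGAAGCCtagaaatggtgagtgccggg
ZNF93 (chr19:20011863-20011892, plus strand): acagctaagacaccaggaccCCTGGAAGCC
ZNF91 (chr19:23578124-23578153, minus strand): ccaggaaccCCTGGAAGCCtagaaatggtg

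Of the 25 bound members of the cluster, 7 had this run of 10 letters in the 30-base window, these 3 included. Most bound members of the cluster lacked it there, among them the least enriched, such as ZNF486, ZNF682 and ZNF257. ZNF93, which had the run, was itself at a mean percentile of 15.1. A relation of the run to enrichment was not tested. The run occurred within 250 bases downstream of the TSS in 18 of the 37 members of the cluster, of which 12 were bound and 6 were not. It was found in 5 members of the ZNF653 to ZNF791 cluster and in no other member of the chromosome, and in 0.451% of all protein-coding genes. Promoters this similar can share short reads, so the values of single genes in this cluster are reported as uncertain. The study's methods state alignment with Bowtie2 at default settings, which place such a read at a single one of its best matches, and do not state a later filter on mapping quality. The part of sequence likeness in the values below was not tested.

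PHF8 binding was nearly complete in several clusters and interrupted in others. All 25 members from ZNF653 to ZNF791 (chromosome 19, 11.59 to 12.75 Mb) and all 5 from ZNF302 to ZNF792 (35.17 to 35.46 Mb) were bound. Binding was also found at 25 of 26 members from ZNF565 to ZNF573 (36.67 to 38.31 Mb), at 22 of 23 from ZNF575 to ZNF180 (44.03 to 45.00 Mb) and at 40 of 43 from ZNF264 to ZNF446 (57.70 to 58.99 Mb). The smaller groups from ZNF554 to ZNF77 (2.82 to 2.94 Mb), ZNF414 to ZNF846 (8.57 to 9.90 Mb) and ZNF628 to ZNF835 (55.99 to 57.18 Mb) had 4 of 5, 11 of 13 and 14 of 16 bound. In the largest interruption, 12 of the 37 members from ZNF101 to ZNF254 (19.78 to 24.31 Mb) were not bound, followed by 7 of the 39 from ZNF175 to ZNF331 (52.07 to 54.08 Mb). Of the 14 genes outside the clusters, 11 were bound.

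**Figure D1:**
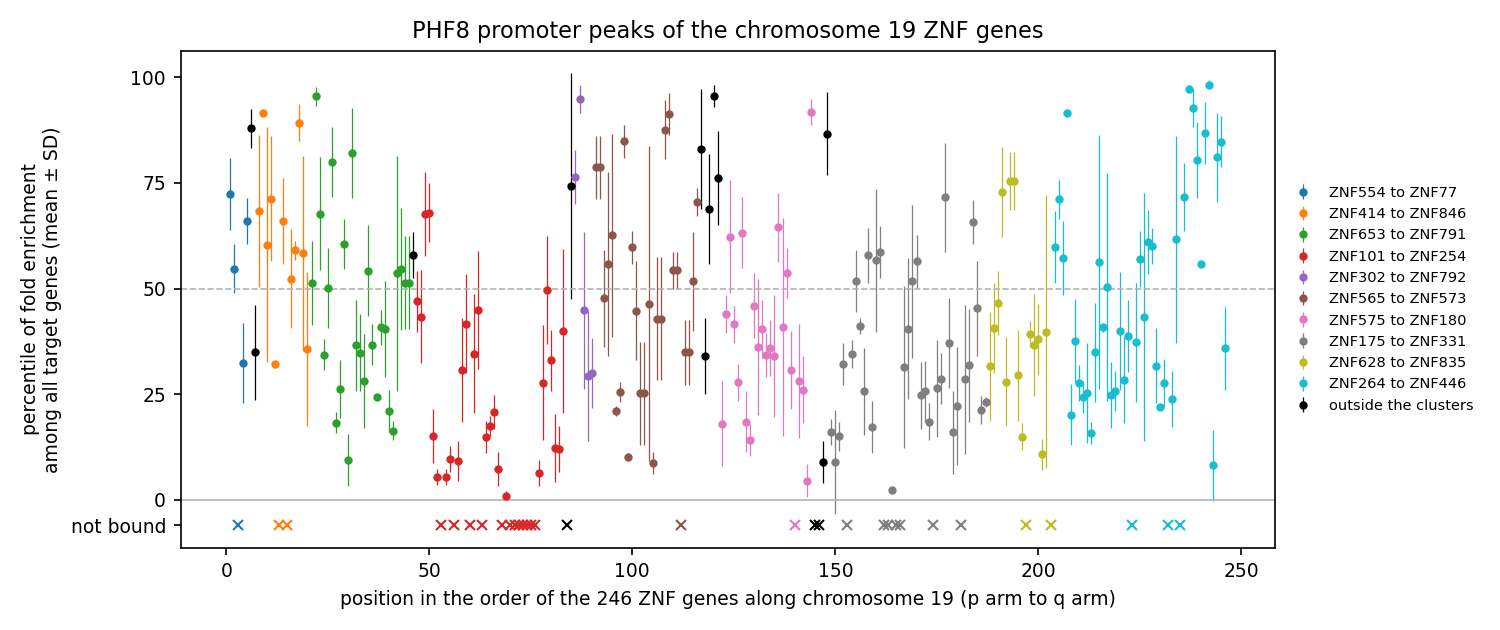
Each of the 246 genes is plotted in its order along chromosome 19, with the percentile of its strongest promoter peak among all target genes on the vertical axis (points, mean of 3 replicates; bars, SD) and genes not bound as crosses beneath. The bound members from ZNF101 to ZNF254, in red, have a median percentile of 20.9, and the same cluster holds a run of neighbouring crosses.

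The zinc finger genes were bound more often than the other genes of the same intervals. Other protein-coding genes that overlap the 10 cluster spans numbered 114, and 59 of them were bound (51.8%), against 203 of the 232 clustered members (87.5%). Of all 1234 other protein-coding genes of chromosome 19, 56% were bound. The ZNF genes of other chromosomes, on the other hand, were bound at a similar share, 224 of 262 or 85.5%. A total of 1245 regions of chromosome 19 carried a peak in all 3 replicates, and 246 of them (19.8%) lay within 1 kb of a member TSS.

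Most members have CpG-rich promoters, the class at which PHF8 is usually found. A promoter was called CpG-island-like when at least 50% of the bases within 250 bp of the TSS were G or C and the observed over expected CpG ratio was at least 0.6. By this measure 198 members were CpG-island-like, and 179 of them were bound (90.4%, interval 85.5 to 93.8%), against 82.8% of all CpG-island-like protein-coding promoters. The 48 members with CpG-poor promoters were bound in 35 cases (72.9%), whereas CpG-poor promoters of all protein-coding genes were bound in 14.1% and those of ZNF genes on other chromosomes in 53.5%. For bound genes the window was placed on the TSS nearest to the peak, which can favour CpG-rich starts. With every window placed on the 5′ end of the gene record, an alternative added after the data had been seen, 63 of 77 CpG-poor members (81.8%) were bound, against 30.6% of all CpG-poor protein-coding genes. Bound here still means a peak near any TSS of the gene. The peak can therefore lie at another TSS than the CpG-poor one, and this share does not describe binding at CpG-poor sequence itself.

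The largest group of CpG-poor promoters lay in the ZNF91 cluster. From ZNF101 to ZNF254, only 4 of 37 promoters were CpG-island-like (10.8%), with a median CpG ratio of 0.490, and 22 of the 33 CpG-poor promoters were bound. In the ZNF653 to ZNF791 cluster, 7 of 25 promoters were CpG-poor and all 7 were bound. In the other 8 clusters between 80.0% and 100% of promoters were CpG-island-like. With every window at the gene record's 5′ end, the ZNF91 cluster had 3 of 37 CpG-island-like promoters and held 34 of 77 CpG-poor members, in place of 33 of 48. The shares then fell to 56.5% from ZNF575 to ZNF180 and to 12 of 16 from ZNF628 to ZNF835, and lay between 80.0% and 100% in the other 6 of these 8 clusters. The 7 unbound members from ZNF175 to ZNF331 were CpG-island-like with either window. Of all 39 members of that cluster, 39 were in this class with the first window and 32 with the second, and the 7 others were bound.

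**Figure D2:**
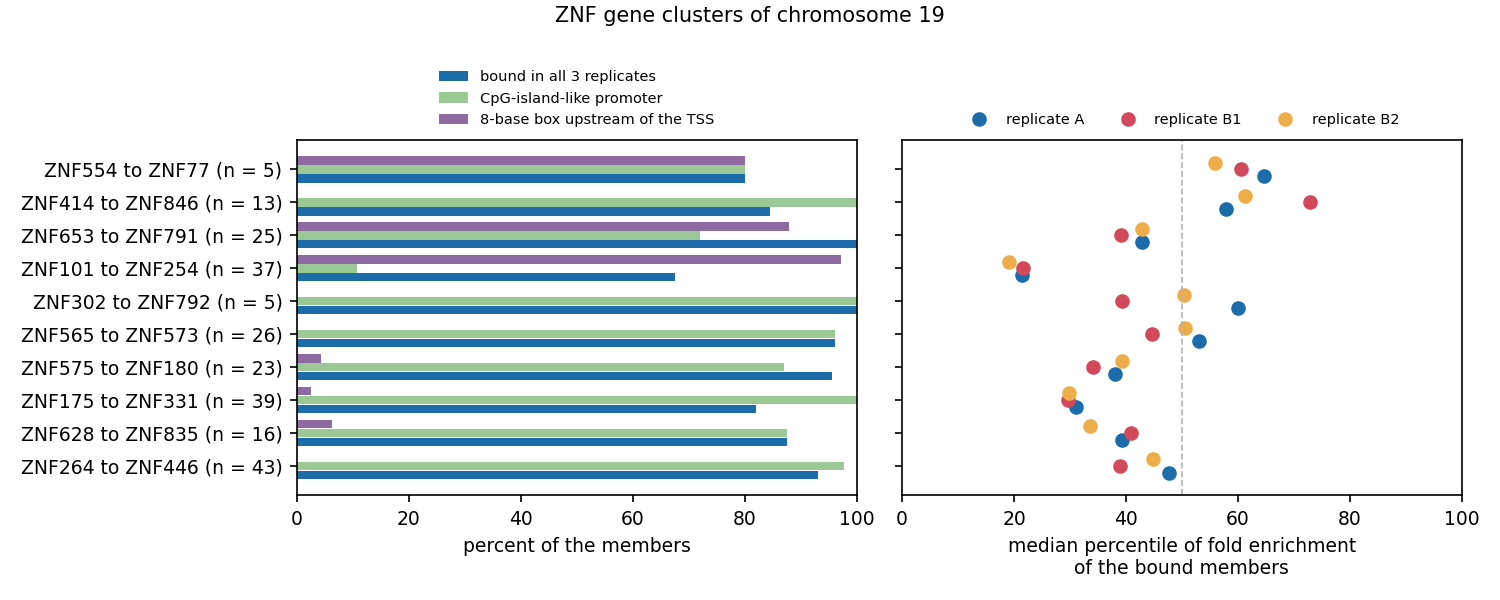
The left panel gives, for each cluster in chromosomal order, the percent of members bound in all 3 replicates, with a CpG-island-like promoter and with the 8-base string CCAATCAG upstream; the right panel gives the median percentile of enrichment of the bound members in each replicate. The ZNF101 to ZNF254 cluster combines 97.3% of promoters with the string, 10.8% that are CpG-island-like (8.11% with the window at the gene record's 5′ end) and medians of 21.5, 21.7 and 19.2.

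CpG-dense promoters were present among bound and unbound genes alike, and a pair of each is shown. In the next sequences, the 100 bases upstream of a TSS as above, capitals mark CpG. The first pair was bound and among the most enriched genes of its cluster, and the second pair had no peak in any replicate.
ZNF584 (bound, chr19:58919916-58920015, plus strand): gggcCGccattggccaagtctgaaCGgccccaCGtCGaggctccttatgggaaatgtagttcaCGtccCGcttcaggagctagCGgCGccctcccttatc
ZNF180 (bound, chr19:45004577-45004676, minus strand): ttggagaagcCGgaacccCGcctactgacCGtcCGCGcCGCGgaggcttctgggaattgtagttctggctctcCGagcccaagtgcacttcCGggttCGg
ZNF541 (not bound, chr19:48076406-48076505, minus strand): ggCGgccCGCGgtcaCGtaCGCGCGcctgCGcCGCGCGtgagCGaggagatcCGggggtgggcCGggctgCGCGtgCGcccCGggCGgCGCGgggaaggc
ZNF677 (not bound, chr19:53758152-53758251, minus strand): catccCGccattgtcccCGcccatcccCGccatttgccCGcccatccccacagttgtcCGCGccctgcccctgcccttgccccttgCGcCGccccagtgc

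Among the bound members, enrichment was somewhat weaker than at other target promoters. The strongest promoter peak had a median enrichment of 28.9-fold (A), 16.04-fold (B1) and 15.3-fold (B2) at the 214 bound members, against 33.5-, 19.4- and 18.4-fold at 11925 other protein-coding targets. The difference was −0.25 ± 0.03 on the log2 scale (SD, 3 replicates), that is 0.840 times the other median, and it had the same sign in 3 of 3 replicates. The sign-flip permutation test across replicates (exact, two-sided) gave p = 0.25, the smallest value that 3 replicates allow. Against the 691 other targets of chromosome 19 the difference was −0.37 ± 0.06 (3 of 3 replicates, exact permutation p = 0.25). Against ZNF targets of other chromosomes it was −0.16 ± 0.05 (3 of 3 replicates, exact permutation p = 0.25), and it was −0.08 ± 0.09 (exact permutation p = 0.5) among promoters that were CpG-island-like at the gene record's 5′ end, an alternative added after the data had been seen. Counted in fragments at the summit instead of fold enrichment, the difference from other protein-coding targets shrank to −0.13 and that from other ZNF targets to −0.04 ± 0.05 (exact permutation p = 0.5).

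**Figure D3:**
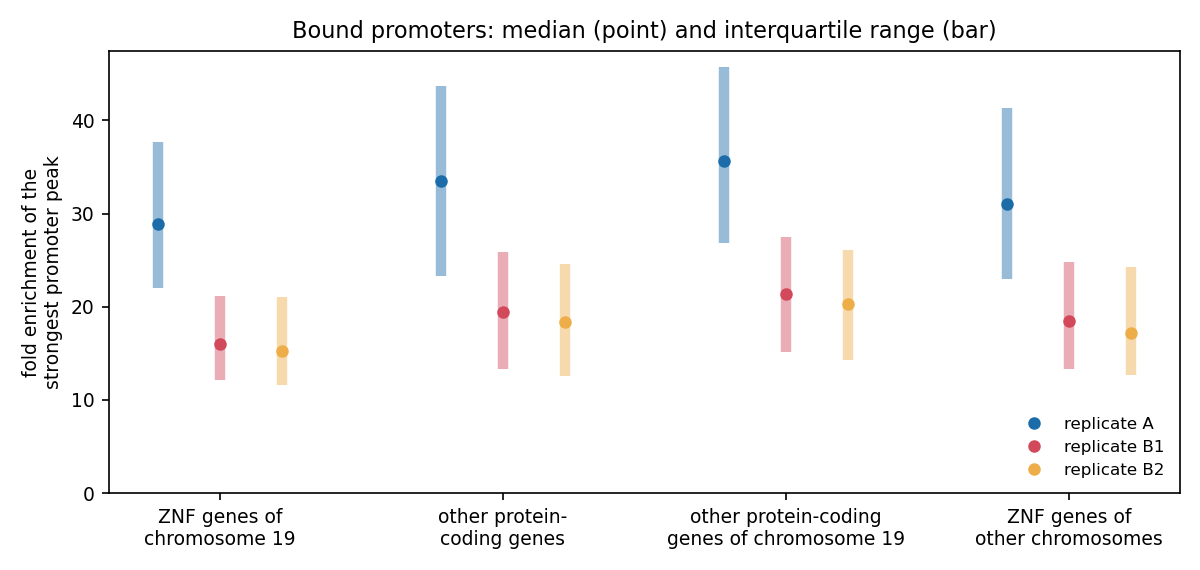
Fold enrichment of the strongest promoter peak at bound genes is shown for 4 gene sets and 3 replicates (point, median; bar, interquartile range). In each replicate the chromosome 19 ZNF genes have the lowest median, 28.9, 16.04 and 15.3, and their interquartile ranges overlap those of the other sets.

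The member peaks were also narrower and more often centred downstream of the TSS, by an amount that depended on the set compared. Median widths were 688 bp in A, 572 bp in B1 and 536 bp in B2, compared with 826, 723 and 676 bp at other protein-coding targets, a difference of −143 ± 6.83 bp (3 of 3 replicates, exact permutation p = 0.25). For the 132 bound members without an opposite-strand TSS of another gene within 2 kb, the summit lay downstream of the nearest TSS in 87.9%, 92.4% and 87.9% of cases. At other protein-coding targets these shares were 73.1%, 72.6% and 73.6%, a difference of 16.3 ± 3.06 percentage points (3 of 3 replicates, exact permutation p = 0.25). The median summit position was 97, 99.5 and 98.5 bp downstream of the TSS, against 88, 84 and 86 bp. Between 51 and 200 bp downstream lay 77.3%, 84.1% and 77.3% of member summits and 59.5%, 58.2% and 59.3% of the others. Members had fewer annotated TSSs, with a median of 5 against 7 in other targets, and with 1 TSS per gene the difference in downstream summits was 11.3 points. Against other targets of chromosome 19, both differences were smaller, at −43.2 ± 17.5 bp and 7.98 ± 2.49 points (each 3 of 3 replicates, exact permutation p = 0.25). Against ZNF targets of other chromosomes they were −189 ± 46.2 bp and 8.69 ± 1.83 points (each 3 of 3 replicates, exact permutation p = 0.25). Both of these reference sets were added for width and position after the data had been seen.

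**Figure D4:**
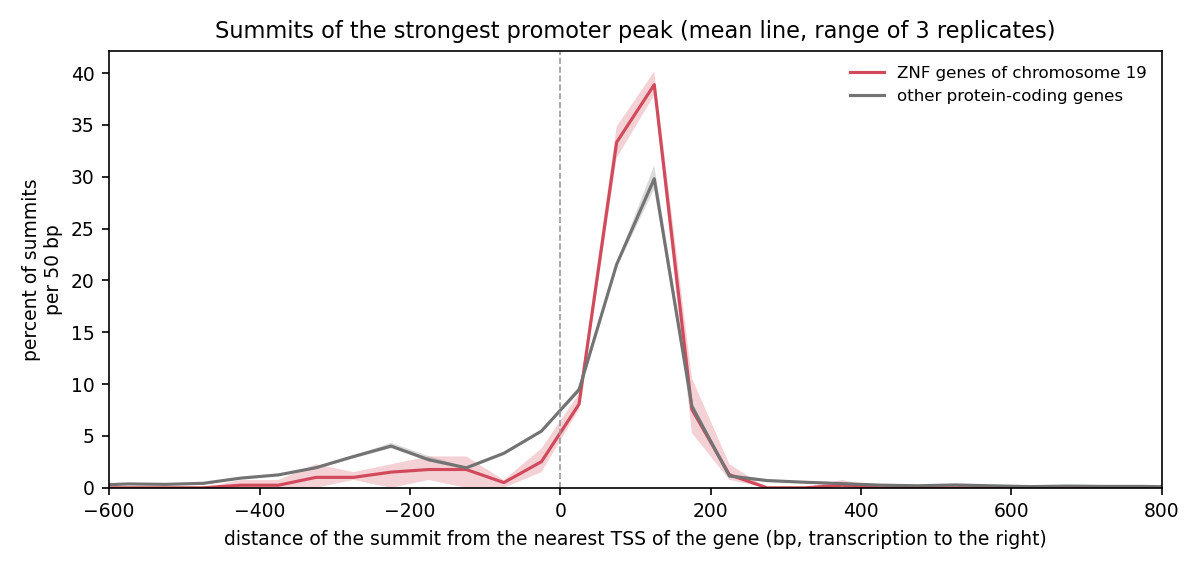
The distance of the strongest summit from the nearest TSS of the gene, in base pairs with transcription to the right, is given for chromosome 19 ZNF genes and other protein-coding genes without a nearby opposite-strand TSS (line, mean of 3 replicates; shading, range). Both curves peak 100 to 150 bp downstream, and the member curve has less weight upstream of the TSS.

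Several members share a promoter, and their values are then the same measurement. The 214 bound genes were represented by 205 distinct peaks in A and 207 in B1 and B2. Pairs with a joint peak in every replicate included ZNF490 with ZNF791, ZNF146 with ZNF565, ZNF569 with ZNF570, and ZNF580 with ZNF581. Peaks inside a member gene but away from any TSS were rare. ZNF709 was the only member with such a peak in all 3 replicates (0.407% of members, against 2.26% of protein-coding genes). Its peak lay at chr19:12605855-12606698 in A, with 19.6-fold enrichment, and the strongest peak at this site had 21.1-fold in B1 and 15.3-fold in B2. The promoter of ZNF709 had 44.02-, 12.03- and 20.4-fold enrichment in the same replicates, higher than the inner site in A and B2 but not in B1. The 3′ ends of ZNF genes are known to be bound by ZNF274 together with SETDB1. Among the inner peaks of members in any replicate, the nearest to the 3′ end of its gene lay 5135 bp away, in ZNF700 in B1.

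The most enriched members were spread over several clusters and outside them. ZNF584 had 67.8-fold enrichment in A, 40.4-fold in B1 and 36.3-fold in B2, which placed it at percentile 98.3 ± 1.15 among the 16541 target genes (SD, n = 3). It was followed by ZNF274, whose protein binds the 3′ ends of other ZNF genes and recruits SETDB1, with 60.2-, 40.2- and 35.6-fold (percentile 97.3 ± 0.794). Both lie in the ZNF264 to ZNF446 cluster near the telomere of the long arm. ZNF574, outside the clusters, had 54.8-, 40.9- and 34.4-fold enrichment (percentile 95.6 ± 2.66). ZNF627 had 62.7-, 34.7- and 32.9-fold (percentile 95.5 ± 2.28), and ZNF181 had 56.8-, 32.4- and 38.7-fold (percentile 94.8 ± 3.37). Within replicates, ZNF584 lay above ZNF274 and ZNF627 in all 3, but ZNF574 exceeded it in B1 and ZNF181 in B2. The order of the 5 genes is therefore not resolved.

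Among the least enriched bound members, ZNF257 and ZNF229 came near the detection limit of the peak lists. ZNF257 had 7.40-fold enrichment in A, 3.18-fold in B1 and 4.09-fold in B2, from 18, 13 and 14 fragments at the summit. The exact Poisson 95% interval for the 13 fragments in B1 was 6.92 to 22.2, which covers counting error only. ZNF528 had 7.80-, 5.12- and 5.22-fold, and ZNF486 had 11.3-, 6.91- and 5.46-fold. ZNF682 had 10.1-, 7.16- and 5.62-fold. ZNF229 had 11.98-fold in A, 6.59-fold in B1 and 3.38-fold in B2. ZNF257, ZNF486 and ZNF682 belong to the ZNF91 cluster, ZNF528 to the ZNF175 to ZNF331 cluster and ZNF229 to the ZNF575 to ZNF180 cluster. ZNF229 and ZNF257 were no longer bound when peaks had to exceed 4-fold enrichment or to have a q-value below 0.001.

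The clusters differed in their median enrichment as well as in their extremes. The bound members from ZNF101 to ZNF254 had median percentiles of 21.5, 21.7 and 19.2 in A, B1 and B2, and those from ZNF175 to ZNF331 had 31.1, 29.6 and 29.8. Every other cluster had a higher median in each replicate, up to 57.9, 72.9 and 61.2 in the ZNF414 to ZNF846 cluster and 64.7, 60.5 and 55.8 at the 4 bound genes from ZNF554 to ZNF77. The 11 bound genes outside the clusters had medians of 78.5, 63.8 and 73.8. Differences between clusters were not tested. Without the ZNF91 cluster, the difference in log2 enrichment from other protein-coding targets was −0.21 ± 0.06 (3 of 3 replicates, exact permutation p = 0.25).

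Inside the ZNF91 cluster enrichment nevertheless covered a wide range. ZNF253 had 42.8-fold enrichment in A, 21.4-fold in B1 and 22.4-fold in B2 (percentile 68.0 ± 7.01). ZNF91 had 37.0-, 15.3- and 18.1-fold (percentile 49.7 ± 12.8), from 95, 54 and 72 fragments. ZNF93, the LINE-1 repressor, had 20.6-, 9.08- and 7.69-fold (percentile 15.1 ± 6.33), and it lay below ZNF91 in all 3 replicates. ZNF43 had 11.7-, 8.53- and 5.59-fold (percentile 7.30 ± 3.91). The enrichment of ZNF43 was below that of ZNF93 in each replicate, but their percentiles overlapped. Restricting peaks to more than 10-fold enrichment left 12 of the 25 bound members of the cluster, against 171 of 214 over the chromosome.

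In each other cluster the most and least enriched bound members were far apart. ZNF763, the lowest of the fully bound ZNF653 to ZNF791 cluster, had 17.4-, 7.49- and 5.70-fold enrichment, against the 62.7-, 34.7- and 32.9-fold of ZNF627. ZNF132 was the lowest of the ZNF264 to ZNF446 cluster, with 18.2-, 6.71- and 4.29-fold, although it lies next to ZNF584, the highest. ZNF527 and ZNF585A marked the range from ZNF565 to ZNF573, with 50.4-, 37.8- and 29.4-fold against 11.96-, 8.61- and 6.82-fold. ZNF180 had 50.7-, 33.0- and 33.4-fold, the highest of its cluster, in which ZNF229 was the lowest. ZNF160 led the ZNF175 to ZNF331 cluster with 48.2-, 24.1- and 19.98-fold. ZNF331, an imprinted gene at the end of this cluster, had 20.9-, 11.9- and 11.8-fold, and it was not bound when a single TSS per gene was scored. From ZNF628 to ZNF835 the highest was ZNF581, with 39.7-, 26.3- and 25.7-fold, tied with ZNF580 through their joint peak. ZNF470 was the lowest there, with 16.4-, 7.27- and 7.63-fold. In the remaining 3 clusters the pairs were ZNF554 and ZNF57 (percentiles 72.4 and 32.4), ZNF558 and ZNF559 (91.6 and 32.1), and ZNF181 and ZNF30 (94.8 and 29.2).

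The ranking of the bound members was shared between replicates. Spearman's rho of fold enrichment over the 214 genes was 0.728 between A and B1, 0.781 between A and B2 and 0.875 between B1 and B2, and it was 0.878, 0.910 and 0.911 for fragments at the summit. These values describe genes within the same libraries and are given without a test. ZNF507, which encodes a zinc finger protein expressed in the developing nervous system, was an exception to the general scale of the replicates, with 29.7-fold in A, 31.2-fold in B1 and 29.7-fold in B2. It therefore lay at percentile 43.4 in A and at 89.6 and 89.7 in B1 and B2.

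The 32 members that were not bound mostly lacked any peak. In 27 of them no replicate had a peak within 1 kb of a TSS, and the nearest peak of any replicate was 2392 to 197766 bp away, with a median of 34137 bp. ZNF98, ZNF492, ZNF536 and ZNF350 had a peak in A only, with 6.62-, 8.54-, 3.99- and 5.98-fold enrichment, respectively, from 16, 21, 11 and 17 fragments. ZNF714 had a peak in A (8.57-fold) and B2 (5.39-fold). These 5 genes thus had weak peaks in the replicate with the highest median enrichment. Bound members of like enrichment in A, such as ZNF257 with 7.40-fold and ZNF528 with 7.80-fold, were listed in all 3 replicates. ZNF536 encodes a repressor of neuronal differentiation, and ZNF350, also called ZBRK1, is a partner of BRCA1.

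A run of 7 neighbouring members in the ZNF91 cluster was not bound, namely ZNF676, ZNF729, ZNF98, ZNF492, ZNF99, ZNF723 and ZNF728. Of these, ZNF98 and ZNF492 had the weak peaks in A described above and the other 5 had none. The remaining unbound members of the cluster were ZNF90, ZNF626, ZNF714, ZNF738 and ZNF208. ZNF729 and ZNF208 encode the proteins with most C2H2 patterns on the chromosome, 39 and 36, while ZNF91, with 32, was bound. Across all members the number of fingers differed little, with a median of 13 in bound and 12 in unbound genes. ZNF208, ZNF99 and ZNF728, whose upstream sequences are printed above, had GC shares of 58.8%, 59.4% and 61.2% around the TSS, similar to the 59.0% of ZNF253 and 60.2% of ZNF91.

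On the long arm the unbound genes were CpG-rich with the exception of ZNF233. In the ZNF175 to ZNF331 cluster, ZNF610, ZNF880, ZNF534 and ZNF578 lie close together and are separated only by ZNF528, which was among the least enriched bound genes. ZNF320, ZNF677 and ZNF350 completed the unbound members of this cluster. ZNF154, ZNF418 and ZNF135 were unbound from ZNF264 to ZNF446, and ZNF582 and ZNF835 from ZNF628 to ZNF835. ZNF154 and ZNF582 are known as genes whose promoters are methylated in many tumours, and DNA methylation was not measured here. The unbound ZNF582 promoter had a GC share of 66.0% and a CpG ratio of 0.919, close to the 67.4% and 0.935 of the strongly bound ZNF527. ZNF793 was the only unbound gene from ZNF565 to ZNF573. ZNF541, which acts in male germ cells, and ZNF296 lay outside the clusters and had the highest CpG ratios of the unbound genes, 0.985 and 0.987. The peak nearest to ZNF296 was 2392 bp away.

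On the short arm outside the ZNF91 cluster, ZNF556, ZNF177 and ZNF560 were the only unbound members. ZNF556 had a CpG ratio of 0.389, and the ratios of ZNF177 and ZNF560 were 0.602 and 0.603, just above the limit of the CpG-island-like class. Over all members, the median GC share was 61.6% in bound and 59.5% in unbound genes, and the median CpG ratio was 0.778 and 0.638. Of the bound members 83.6% were CpG-island-like and of the unbound 59.4%, but the window of bound genes was placed by their peak. With every window at the gene record's 5′ end these shares were 70.6% and 56.3%, the median GC share was 59.6% and 59.4%, and the median CpG ratio was 0.748 and 0.630. For all protein-coding genes the contrast was larger, with median CpG ratios of 0.849 in bound and 0.340 in unbound genes.

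**Figure D5:**
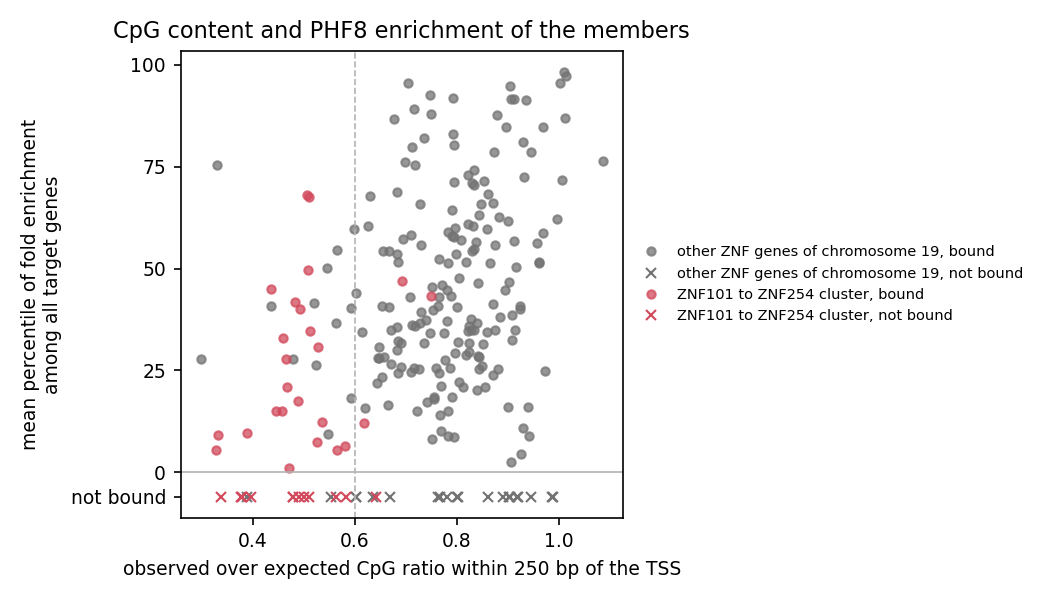
The observed over expected CpG ratio within 250 bp of the TSS is plotted against the mean percentile of enrichment for bound members (points) and unbound members (crosses), with the ZNF101 to ZNF254 cluster in red and the limit of 0.6 dashed. Bound and unbound genes are present on both sides of the limit, and bound genes of the red cluster lie mostly to its left.

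Letters recognised by ETS factors and the letters CCAAT had similar shares in bound and unbound members, and the other strings searched were rare. The letters CCGGAAG, a core recognised by ETS factors, were present on either strand within 250 bp of the TSS in 48.6% of bound and 53.1% of unbound members, against 16.5% of all protein-coding genes and 24.1% of bound ones. They were frequent from ZNF101 to ZNF254 (29 of 37), from ZNF175 to ZNF331 (29 of 39) and from ZNF264 to ZNF446 (28 of 43), and absent from ZNF554 to ZNF77 (0 of 5). The letters CCAAT, which form part of the CCAATCAG string, were found in 57.9% of bound and 59.4% of unbound members and in 42.1% of all protein-coding genes. The letters AAGATGGCG of YY1 were found in 6.07% of bound members and 3.43% of all protein-coding genes, and GCATGCGC of NRF1 in 4.67% and 4.61%. The remaining strings, CTCGCGAG of ZBTB33, TTTCCCGC of E2F and ACTACAATT of ZNF143, were found in 1.40%, 1.87% and 1.40% of bound members, against 1.80%, 3.14% and 0.422% of all protein-coding genes. In the 32 unbound members the YY1 string was found in 3.1% and the E2F string in 6.25%. The strings of NRF1, ZBTB33 and ZNF143 were found in 0% of them. The unbound members are too few to compare shares this small. A match describes the letters only and not occupancy by the factor.

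The genes through which KRAB zinc finger proteins silence chromatin were bound throughout. All 14 genes of this list had peaks in the 3 replicates, beside 60.2% of all protein-coding genes and 82.8% of those with a CpG-island-like promoter. TRIM28, which also lies on chromosome 19, had 47.4-fold enrichment in A, 52.2-fold in B1 and 61.7-fold in B2 (percentile 94.4 ± 9.58), and DNMT1, the maintenance DNA methyltransferase, had 56.4-, 39.9- and 34.5-fold (96.0 ± 1.84). PPHLN1, a subunit of the HUSH silencing complex, had 52.2-, 30.5- and 24.0-fold, and its partners TASOR and MPHOSPH8 had mean percentiles of 64.7 and 42.2, beside 39.3 for MORC2. The HP1 genes CBX1, CBX3 and CBX5 had mean percentiles of 63.8, 67.2 and 50.0, and the histone H3.3 deposition genes ATRX and DAXX had 52.5 and 36.6. Of the remodelling ATPases, CHD4 had 59.9 and CHD3 had 8.99. SETDB1 was at the low end with 16.1-, 9.29- and 10.6-fold (percentile 15.98 ± 3.45), so the methyltransferase and the corepressor that recruits it differed widely in PHF8 enrichment. Of 20 other zinc finger genes of chromosome 19, with symbols of the ZFP, ZSCAN, ZIM, ZIK, ZBTB, MZF and PEG3 groups, 12 were bound.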

How the data were processed

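Peaks were analysed as deposited by the authors for 3 PHF8 ChIP-seq replicates of SKMEL-147 cells, with 2 inputs as controls. According to the study's methods, reads were aligned to hg19 with Bowtie2 and peaks were called with MACS in narrow mode against input, separately for each replicate, above 1.5-fold enrichment and with a q-value limit of 0.05. The submitters' processing notes also name bcl2fastq and Picard, without versions. The deposited columns hold the fold enrichment at the summit, a linear ratio of pileup to local background, and the −log10 p-value and −log10 q-value. A further deposited column is an integer score, which was not used, and the last is the summit offset. No column holds read counts, but the number of fragments at each summit was recovered from fold enrichment and p-value. The search covered whole numbers only, so wholeness was set by the method and was not tested. For 100% of peaks, the number found gave a −log10 p-value within 0.001 of the deposited value.

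Members, lists and tests were chosen with earlier results of these data known. A gene was bound when a peak overlapped the 1 kb on either side of any GENCODE TSS in all 3 replicates. The strongest promoter peak represented each gene, as fold enrichment and as its percentile among target genes of the replicate. Differences between gene sets were taken between medians within each replicate and tested by an exact two-sided sign-flip permutation over 3 replicates, which cannot go below p = 0.25 and treats B1 and B2 as being as independent of each other as of A. Genes were named by rule, comprising all unbound members, the 5 highest and 5 lowest bound members by mean percentile, the highest and lowest of each cluster, members with known roles and the KRAB silencing list. Zinc finger patterns (C, 2 to 4 residues, C, 12 residues, H, 3 to 5 residues, H) were counted in translated GENCODE coding sequence instead of RefSeq proteins. Analyses were run with Python 3.11.15, numpy 2.4.6, pandas 2.3.3, scipy 1.17.1 and Biopython 1.88, and the scoring steps were tested on simulated data. Alternatives covered the TSS window, TSS choice, peak thresholds, replicates, CpG class, fragments and the cluster gap.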

Additional observations from a re-analysis of the deposited data

How the results depend on the processing

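The number of bound members was 214 with windows of 500 bp, 1 kb and 2 kb, with summits required inside the window and without replicate A or B2, and 215 without replicate B1 or with peaks in at least 2 replicates. It was 212 with a q-value below 0.001 or more than 4-fold enrichment, 191 with 1 TSS per gene (54.0% of protein-coding genes) and 171 above 10-fold enrichment (49.6%). A gap of 250 kb gave 12 clusters and a gap of 1 Mb gave 9. Of 88 recomputed comparisons and counts over all members, 88 were classed as unchanged. For comparisons this means the same direction and the same side of the threshold. No p-value here could pass 0.05, so this says nothing about significance. Counts have no direction and no p-value, so their class adds nothing to the numbers themselves. Of the values for single genes and clusters, 26 of 411 were classed as moved. For percentiles of single genes this means by more than the spread between replicates. Counts of bound cluster members have no such spread. Those that moved, both above 10-fold enrichment, fell from 25 to 12 (ZNF101 to ZNF254) and from 32 to 21 (ZNF175 to ZNF331). Genes that lost their call under an alternative are not among the 411. ZNF132 rose from percentile 8.16 to 20.8 when ranked by fragments, and ZNF584 fell to 85.0 with 1 TSS per gene. The ZNF331 and ZNF574 calls were lost with 1 TSS per gene, and 12 of the 29 bound genes named by rule were lost above 10-fold enrichment. The cause of these changes was not tested. The alternatives without the ZNF91 cluster and with the CpG class taken from each gene record's start were added after the data had been seen. No paired analysis was possible because only 1 group has peak lists. Peaks with fewer than 8 fragments at the summit in A or B1, or 10 in B2, were not listed, which limits statements about unbound genes.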
